A study of Coptotermes formosanus x Coptotermes gestroi and Coptotermes formosanus and Coptotermes gestroi with 67 samples.

Results

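Gene expression in the bodies of Hybrid G worker termites was set against that of both parental species, Coptotermes formosanus and Coptotermes gestroi, at 3 stages of the molting cycle. The study compared workers of both species and of 2 hybrid crosses, named Hybrid F and Hybrid G, between molts, before the molt and after it, in heads and in bodies. The Hybrid G body samples were taken by their labels and number 9 of 67, with 3 at each stage; they were set against 7 C. formosanus and 6 C. gestroi body samples of the same stages. All columns of a group hold identical values, so these 22 samples are 9 expression profiles of the 24 in the table, 1 for each cross and stage. A body is the thorax and abdomen with the gut taken out. Total RNA was isolated by Trizol followed by silica columns, and mRNA libraries were sequenced. The labels describe Hybrid G only as a cross of both species; the mother's species, the number of workers pooled and their colonies are not given. No treatment is named for any group.

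Both species are subterranean termites whose workers keep molting throughout their lives. A molt is driven by pulses of ecdysteroid hormones: the epidermis lays down a new cuticle beneath the old one, which is then shed, and expression in the body wall and fat body swings widely with it. A hybrid carries 1 genome from each parent, so for a gene on which the parents differ its level can lie at either parental level, between them, or outside both. If each parental copy keeps its own output, the level falls at the average of the parents on a linear scale, which on a log scale lies nearer the higher parent.

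The table pairs no gene ID with a name, so roles cannot be given and the labelled tissue could not be checked against markers. IDs come in 2 main series, Cfor_ and BGI_novel_, which are used below as the files give them. Total expected counts (counts of reads that an estimator divides among genes) were 27041363, 35612008 and 32405347 in the Hybrid G profiles between molts, before and after the molt, 10080438, 38338701 and 35404144 in C. formosanus, and 9861833, 19497806 and 28645469 in C. gestroi. Groups with more columns had larger totals, as they would if the samples of a group had been summed. The inter-molt bodies had 1 column in each parental species and 3 in Hybrid G, and the pre-molt C. gestroi body had 2, so the inter-molt comparisons set 1 sample of each parent against 3 of Hybrid G. A count of 3, used as the floor, is worth 0.0782 to 0.304 CPM (counts scaled to the library total) in a single profile. Genes entered as NA, read here as no counts, numbered 1086 to 1173 in the Hybrid G profiles, 1455 to 1577 in C. formosanus and 1692 to 1984 in C. gestroi. What NA stands for is not given, and the inter-molt and pre-molt profiles of a cross had the same number of NA genes. If NA marks genes left out of the counting for a species or stage, differences that rest on NA were not measured. No source used here names the genome or annotation on which reads were counted, so a difference in how well reads of each species could be assigned cannot be told apart from a difference in expression. In whole bodies, fewer cells of a type and less RNA per cell cannot be told apart either. Between molts, the Hybrid G body was at least 4-fold above both parental bodies in 357 genes and below both in 209. The C. formosanus body was above the other 2 in 208 and below them in 513, that of C. gestroi in 299 and 1192. Counts without each profile are given beside the main ones.

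Over the 12962 genes with enough counts, the Hybrid G body was nearer to C. formosanus than to C. gestroi at all 3 stages. The root mean square difference in log2 CPM between Hybrid G and C. formosanus was 1.52 between molts, 1.34 before the molt and 1.10 after it. Against C. gestroi it was 1.94, 1.64 and 1.34, and between the parents themselves 2.14, 1.88 and 1.84. The Hybrid G body thus differed from each parent by less than the parents differed from each other at every stage. Its distances were smallest after the molt, the only stage with 3 columns in both parents. Stage and number of samples cannot be told apart here. The C. gestroi distance exceeded the C. formosanus distance by 0.42, 0.30 and 0.24 log2 units, a mean of 0.32 ± 0.09 (SD, n = 3 stages). Over the Cfor_ genes alone the mean was 0.21, with Hybrid G nearer C. formosanus at all 3 stages. An exact two-sided sign-flip permutation test gave p = 0.25, the smallest value that 3 stages allow. The inter-molt Hybrid G profile was about as far from the post-molt profile of C. formosanus (1.54) as from the inter-molt one (1.52), and it was nearer to the post-molt profile of C. gestroi (1.75) than to the inter-molt one (1.94). Within a cross, the inter-molt and post-molt bodies differed by 1.31 in Hybrid G, 1.62 in C. formosanus and 1.56 in C. gestroi. The parental inter-molt profiles had 1 column each and smaller totals than the post-molt ones, which had 3. Distances to the inter-molt and post-molt profiles of a parent therefore cannot be compared directly.

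**Figure D1:**
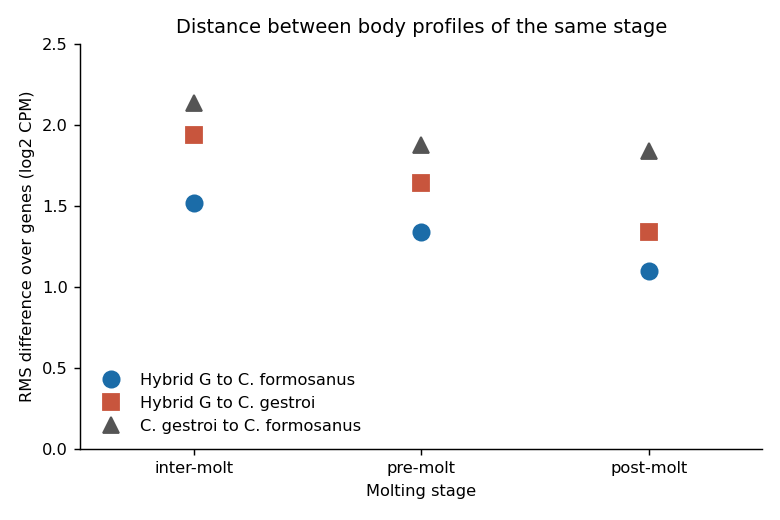
Root mean square difference in log2 CPM (vertical axis) between the body profiles of Hybrid G and each parent and between the parents, by stage (horizontal axis), each point being 1 pair of profiles. The points of Hybrid G against C. formosanus (1.52, 1.34 and 1.10) lie under those against C. gestroi (1.94, 1.64 and 1.34) at each stage.

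The same order appeared in the genes called. Cross and stage were fitted as additive terms to the 9 profiles with edgeR's quasi-likelihood test, so that a call means a difference that recurred over the 3 stages and says nothing of the spread among workers or colonies, at a Benjamini-Hochberg adjusted p under 0.05. Against C. formosanus, 173 of 12962 genes were called (1.33%), 153 of them higher in Hybrid G (1.18%) and 20 lower (0.154%). Against C. gestroi, 1877 were called (14.5%), 1315 higher (10.1%) and 562 lower (4.34%). Between the parents 4220 were called (32.6%), 1894 higher in C. gestroi (14.6%) and 2326 lower (17.9%). All 173 calls against C. formosanus had 1 sign at all 3 stages, as did 1872 of the 1877 against C. gestroi. The median size of the called differences was 3.56 log2 units against C. formosanus and 1.41 against C. gestroi. A call against C. formosanus needed a smaller unadjusted p, because each comparison was adjusted separately and fewer genes passed there. These medians, and the shares of calls in the next sentences, therefore cannot be compared directly between the parents. A difference of at least 4-fold was reached by 118 of the genes higher and 6 of those lower than in C. formosanus, and by 609 and 81 against C. gestroi. BGI_novel_ IDs made up 62.4% of the calls against C. formosanus and 36.7% of those against C. gestroi, beside 27.1% of all genes tested. The parent had at most 3 counts over its 3 profiles in 39 of the 153 higher calls against C. formosanus and in 244 of the 1315 against C. gestroi.

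The number of calls depended on the model and fell with any profile left out, while the order of the 2 comparisons stayed the same. These fits share most of their profiles, so the same order in each is no independent support. With the Hybrid F bodies added to estimate the spread, 897 genes were called against C. formosanus and 3686 against C. gestroi; with DESeq2 on the 9 profiles the numbers were 1345 and 3874. Each profile left out in turn lowered both counts by more than 1.5 times, and fewer profiles give fewer calls by construction. Without the C. formosanus inter-molt, pre-molt or post-molt profile, 75, 39 and 44 genes were called against C. formosanus and 1240, 936 and 744 against C. gestroi. Without the C. gestroi profiles, in the same order, the counts were 105, 83 and 40 against C. formosanus and 748, 610 and 527 against C. gestroi. Without the Hybrid G profiles they were 50, 44 and 69 against C. formosanus and 478, 263 and 618 against C. gestroi.

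Genes are named by the size of the fitted difference (between the parents for the sides and the class between them, the smaller of both for genes above both) among called genes that have 1 sign at all 3 stages and average 3 or more log2 CPM. Among those higher than in C. gestroi, BGI_novel_G003060 and Cfor_02400 had the largest fitted differences. BGI_novel_G003060 stood at 2378, 2388 and 2076 CPM in Hybrid G between molts, before and after the molt and at 3292, 2438 and 2158 in C. formosanus, and was entered as NA in all 3 C. gestroi bodies. If NA stands for no counts, Hybrid G was at least 42559-fold higher than C. gestroi, taking 3 counts over the C. gestroi profiles as the floor. The Hybrid G values overlapped those of C. formosanus. The gene also read 0 in the 3 C. gestroi heads, where NA was likewise read as 0. Cfor_02400 stood at 97.8, 83.1 and 75.8 CPM in Hybrid G, at 106, 127 and 127 in C. formosanus and at NA in C. gestroi, at least 1596-fold higher in Hybrid G on the same reading of NA. In the C. gestroi heads, scaled separately, Cfor_02400 had 0.330, 0 and 0 CPM. The edgeR adjusted p against C. gestroi was 0.0029 for BGI_novel_G003060 and 0.0026 for Cfor_02400.

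On the lower side, BGI_novel_G001363 and Cfor_07987 led against C. gestroi, and both swung with the stage. BGI_novel_G001363 stood at 8.65, 0.397 and 76.1 CPM in Hybrid G, 573, 35.1 and 319.9 in C. gestroi and 0.661, 0 and 5.58 in C. formosanus, in the order between molts, before and after the molt. Hybrid G was below C. gestroi and above C. formosanus at each stage, although its post-molt value exceeded the pre-molt value of C. gestroi. The log2 difference from C. gestroi was -5.18 ± 1.11 (SE, edgeR adjusted p = 0.035). Cfor_07987 stood at 91.6, 1.19 and 89.2 CPM in Hybrid G, 3215, 109 and 749 in C. gestroi and 472, 6.14 and 54.7 in C. formosanus. Between molts and before the molt Hybrid G was under both parents, and after the molt above C. formosanus. Its log2 difference from C. gestroi was -4.71 ± 0.89 (SE, edgeR adjusted p = 0.027). The call of BGI_novel_G001363 was lost in 8 of the 9 fits that left out 1 profile and that of Cfor_07987 in 6.

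Against C. formosanus, both genes with the largest higher calls were nearly absent from that species. BGI_novel_G001574 stood at 204, 685 and 409.7 CPM in Hybrid G, 0.331, 0.376 and 0.289 in C. formosanus and 490.3, 2245 and 1289.8 in C. gestroi. It followed the stages of C. gestroi at a lower level, highest before the molt in both. The log2 difference was 10.29 ± 0.52 (SE, edgeR adjusted p = 0.002) from C. formosanus and -1.57 ± 0.35 (SE, edgeR adjusted p = 0.038) from C. gestroi. BGI_novel_G000468 was steadier, at 128, 108 and 93.2 CPM in Hybrid G, 0, 0.134 and 0.116 in C. formosanus and 181, 185 and 170.4 in C. gestroi. Over the 3 stages pooled, Hybrid G was 1013 times as high as C. formosanus, where 9 counts were seen (95% interval 534 to 2216, counting error only), with a fitted log2 difference of 9.97 ± 0.46 (SE, edgeR adjusted p = 0.002).

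The largest lower calls against C. formosanus were smaller and sat near the C. gestroi level. BGI_novel_G001590 stood at 7.56, 8.24 and 6.76 CPM in Hybrid G, 22.8, 25.9 and 20.2 in C. formosanus and 6.41, 4.93 and 5.01 in C. gestroi. Hybrid G lay just above C. gestroi at each stage and without overlap under C. formosanus, with a log2 difference of -1.61 ± 0.18 (SE, edgeR adjusted p = 0.019). BGI_novel_G003392 stood at 6.84, 7.19 and 6.79 CPM in Hybrid G, 20.0, 18.1 and 17.5 in C. formosanus and 5.27, 3.60 and 4.77 in C. gestroi. Its log2 difference from C. formosanus was -1.41 ± 0.19 (SE, edgeR adjusted p = 0.033), a call lost in all 9 fits that left out 1 profile. That of BGI_novel_G001590 was lost in 7.

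**Figure D2:**
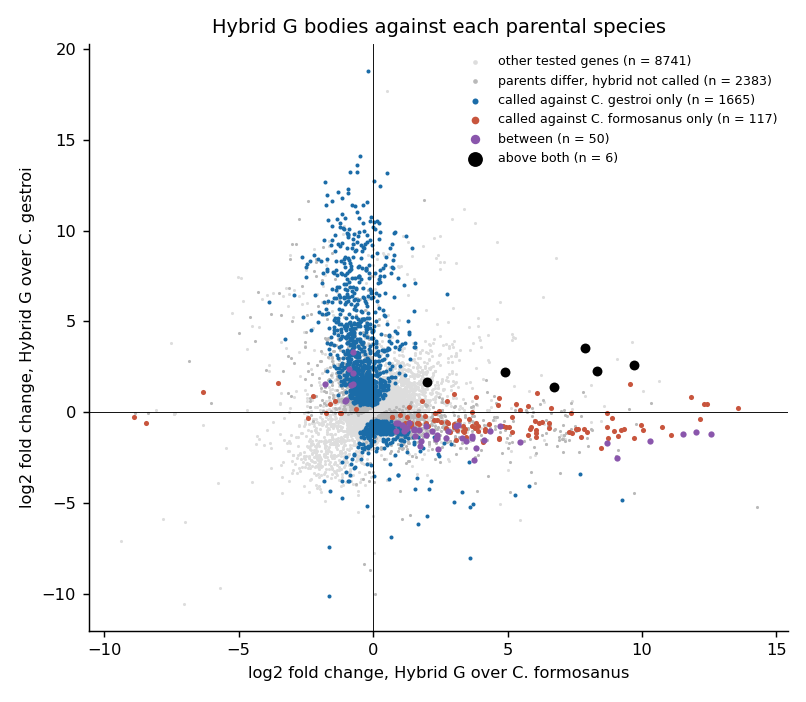
Log2 difference of Hybrid G from C. formosanus (horizontal axis) against that from C. gestroi (vertical axis) for each gene tested in bodies, with the called classes in colour. The 2 axes share the Hybrid G profiles, so the slope of the cloud is no result. The colours show the 1665 genes called from C. gestroi and not from C. formosanus beside the 117 of the reverse kind. Each comparison was adjusted separately, so these 2 numbers cannot be compared directly.

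The genes were then sorted by which of the 3 differences, Hybrid G from each parent and the parents from each other, were called. Of 12962 genes, 1665 (12.8%) were called between the parents and from C. gestroi but not from C. formosanus, here the C. formosanus side, and 117 (0.903%) were on the C. gestroi side. Among genes called from both parents, Hybrid G lay between them in 50 (0.386%), above both in 6 (0.0463%) and below both in 0. For 2383 genes (18.4%) the parents were called different and Hybrid G from neither, 156 (1.20%) were called from C. gestroi alone, and 8585 (66.2%) had no call. A side is named for a missing call, which does not show that Hybrid G and that parent were alike. On the C. formosanus side, C. gestroi was the higher parent in 456 genes and the lower in 1209. On the C. gestroi side it was higher in 105 and lower in 12. BGI_novel_ IDs were 37.5% of the C. formosanus side and 67.5% of the C. gestroi side, with median gene lengths of 3122 and 1845 bases beside 2989 for all genes tested.

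These class sizes moved with the profiles used, and fewer profiles give fewer calls by construction. Leaving out each of the C. formosanus profiles (between molts, before, after) gave 1033, 834 and 645 genes on the C. formosanus side, each of the C. gestroi profiles 695, 570 and 507, and each of the Hybrid G profiles 462, 261 and 525. The C. gestroi side held 47, 26 and 29 genes without a C. formosanus profile, 84, 72 and 37 without a C. gestroi profile, and 42, 44 and 49 without a Hybrid G profile. The class between both parents held 23, 10 and 12, then 16, 8 and 1, then 5, 0 and 1 in the same order. The C. formosanus side was larger than the C. gestroi side in each of these 9 fits, and also with DESeq2 (2683 against 557) and with the Hybrid F bodies added (2798 against 405). All of these fits adjusted each comparison separately, so the same limit holds for them.

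Among genes between both parents, Cfor_06910 had C. formosanus as the higher parent. It stood at 55.1, 40.1 and 42.0 CPM in Hybrid G, 94.3, 66.3 and 68.0 in C. formosanus and 5.53, 3.98 and 4.25 in C. gestroi, with no overlap between the crosses. The log2 difference was -0.73 ± 0.09 (SE, edgeR adjusted p = 0.028) from C. formosanus and 3.32 ± 0.10 (SE, edgeR adjusted p = 0.00072) from C. gestroi. Cfor_12655 had the parents the other way round, at 18.9, 22.5 and 21.6 CPM in Hybrid G, 1.90, 0.912 and 1.88 in C. formosanus and 136, 60.6 and 66.0 in C. gestroi. Hybrid G held a nearly constant level here while C. gestroi was highest between molts. The log2 differences were 3.83 ± 0.38 (SE, edgeR adjusted p = 0.016) from C. formosanus and -1.95 ± 0.35 (SE, edgeR adjusted p = 0.024) from C. gestroi. BGI_novel_G003215 stood at 27.4, 24.0 and 19.0 CPM in Hybrid G, 45.8, 41.2 and 41.1 in C. formosanus and 5.36, 4.55 and 3.53 in C. gestroi, again in the order of Cfor_06910.

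On the C. formosanus side, Cfor_01872 stood at 14.3, 18.6 and 12.4 CPM in Hybrid G, 0.827, 5.15 and 2.60 in C. formosanus and 86.0, 75.9 and 70.6 in C. gestroi. Its Hybrid G values lay between those of the parents at each stage without overlapping either, so that it is on the C. formosanus side only by the missing call. The log2 difference was 2.47 ± 0.49 (SE, edgeR adjusted p = 0.085) from C. formosanus and -2.41 ± 0.47 (SE, edgeR adjusted p = 0.029) from C. gestroi. Before adjustment the edgeR p-values were nearly equal, at 0.0026 and 0.0024. On the C. gestroi side, Cfor_05466 stood at 279.6, 247 and 200.2 CPM in Hybrid G, 3.47, 2.66 and 3.33 in C. formosanus and 211, 477 and 389 in C. gestroi. Hybrid G overlapped C. gestroi and was far above C. formosanus, by a log2 difference of 6.27 ± 0.42 (SE, edgeR adjusted p = 0.0036). From C. gestroi it differed by -0.54 ± 0.34 (SE, edgeR adjusted p = 0.31). In Hybrid F bodies, which share the same parental profiles, this gene stood at 2.33, 2.49 and 3.15 CPM, at the level of C. formosanus. The heads, scaled separately and possibly taken from the same workers, had 501, 289 and 322 CPM in Hybrid G, 4.56, 3.15 and 2.67 in C. formosanus and 463, 302 and 413 in C. gestroi.

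Of the 6 genes called above both parents, 5 have BGI_novel_ IDs; BGI_novel_G003057 and Cfor_01373 are the 2 named by the rule above. BGI_novel_G003057 stood at 31.2, 77.7 and 79.9 CPM in Hybrid G, 2.23, 2.41 and 1.19 in C. formosanus and 6.76, 11.0 and 23.9 in C. gestroi. Every Hybrid G value lay above every parental one, with log2 differences of 4.90 ± 0.60 (SE, edgeR adjusted p = 0.027) from C. formosanus and 2.20 ± 0.52 (SE, edgeR adjusted p = 0.044) from C. gestroi. Cfor_01373 stood at 39.6, 28.0 and 29.7 CPM in Hybrid G, 11.9, 5.63 and 7.35 in C. formosanus and 11.0, 13.1 and 6.48 in C. gestroi. It was above both parents at each stage, with log2 differences of 2.00 ± 0.31 (SE, edgeR adjusted p = 0.049) and 1.68 ± 0.31 (SE, edgeR adjusted p = 0.025). The call against C. gestroi was lost in 7 of the 9 fits without 1 profile for BGI_novel_G003057 and in 6 for Cfor_01373. The Hybrid F bodies had 52.0, 85.1 and 78.5 CPM of BGI_novel_G003057 and 33.7, 30.2 and 26.0 CPM of Cfor_01373. Leaving out 1 profile left 0 to 5 genes above both parents: 5, 3 and 3 without the C. formosanus profiles in stage order, 4, 3 and 2 without those of C. gestroi, and 2, 0 and 0 without those of Hybrid G. No gene was called below both by edgeR on the 9 profiles, while 95 had an unadjusted p under 0.05 against both and DESeq2 called 68. Without the Hybrid G post-molt profile 19 genes were called below both, and without the inter-molt profile 1 was.

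**Figure D3:**
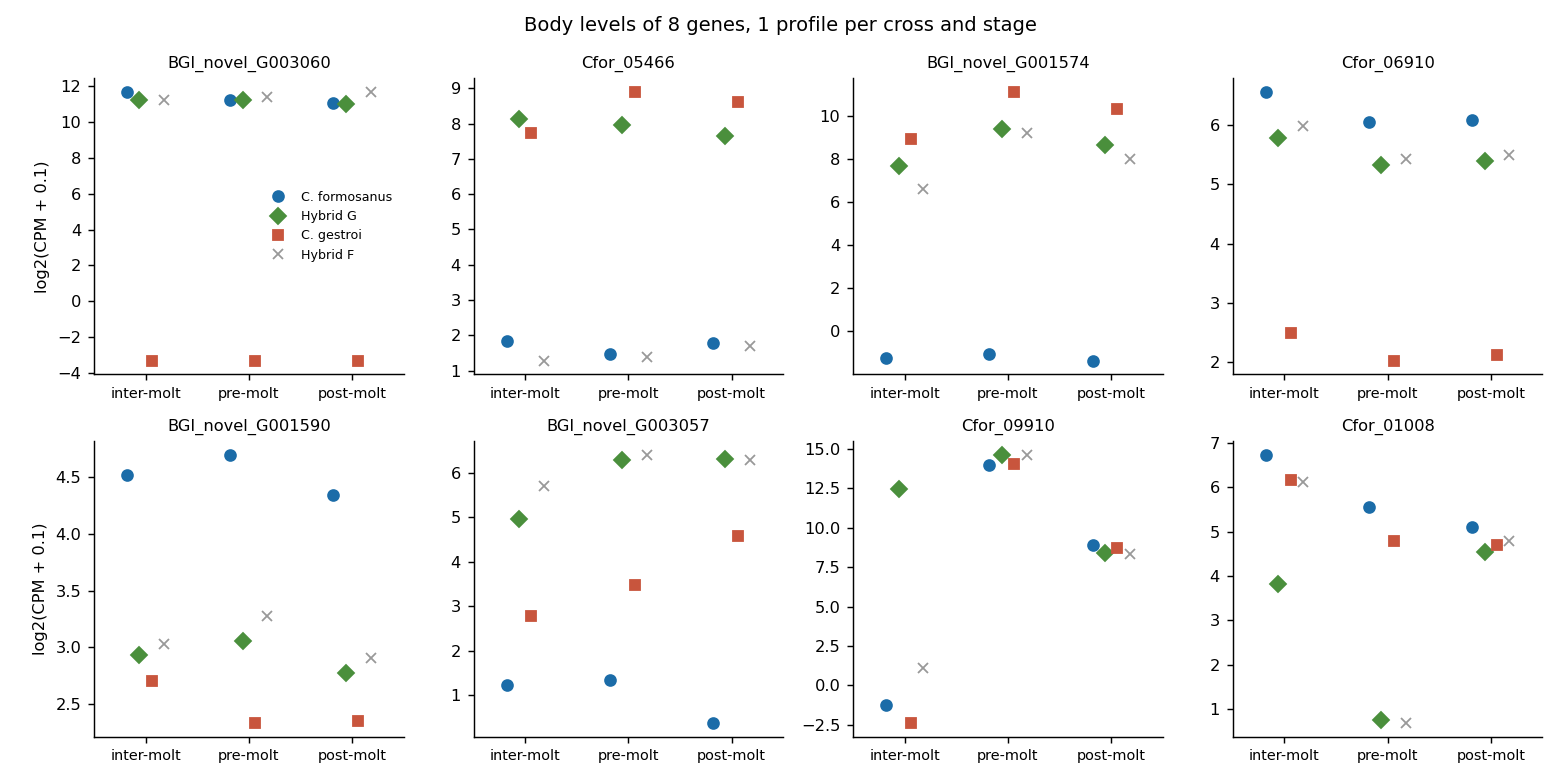
CPM of 8 named genes, 1 per panel, plotted as log2(CPM + 0.1) on a vertical axis of its own range, in the body profiles of C. formosanus, C. gestroi, Hybrid G and, as crosses, Hybrid F at each stage, 1 point per profile. Cfor_06910 keeps 3 separate levels, Cfor_05466 overlaps C. gestroi, and BGI_novel_G003057 lies above both parents at each stage.

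For genes on which the parents differed, the place of Hybrid G was put on a scale running from 0 at the C. formosanus level to 1 at the C. gestroi level. Over the 2788 genes called between the parents with at least a 2-fold difference, the median position on log2 CPM was 0.340 (quartiles 0.170 and 0.562), with 2474 genes (88.7%) between 0 and 1, 235 below 0 and 79 above 1. The stage medians were 0.328 between molts, 0.315 before and 0.370 after the molt, so the stages differed little (SD 0.0288). The position depended on which parent was higher: the median was 0.561 over the 1161 genes with C. gestroi higher and 0.232 over the 1627 with C. gestroi lower. With C. gestroi higher, the 429 BGI_novel_ genes had a median of 0.691 and the other 732 genes one of 0.501, with 0.448 before the molt, so that these others lay about midway. With C. gestroi lower, the medians were 0.206 and 0.262, nearer the higher parent in both ID series. On the linear CPM scale the medians were 0.408 for all genes, 0.363 with C. gestroi higher and 0.438 with C. gestroi lower, with 65.5% of the genes under 0.5. The median over all these genes was thus nearer C. formosanus on both scales. On the log scale this held only for the genes with C. gestroi lower (0.232, against 0.561 with C. gestroi higher). On the linear scale it held for both sets (0.438 and 0.363). The dependence on the higher parent was seen on the log scale and turned round on the linear one. Hybrid F bodies, set against the same parental profiles, had median positions of 0.327 on log2 CPM and 0.391 on CPM over these genes.

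**Figure D4:**
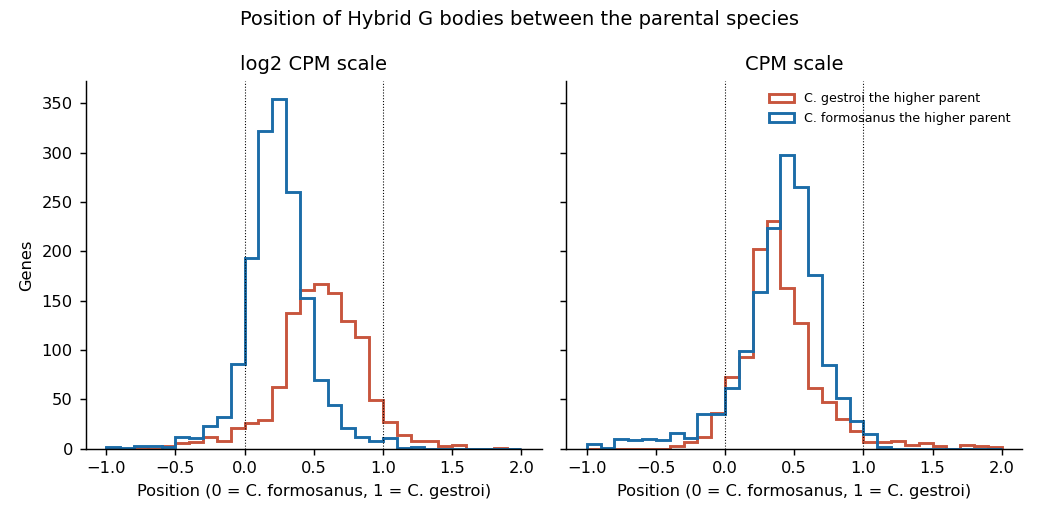
Numbers of genes (vertical axis) by the position of Hybrid G between the parents (horizontal axis, 0 at the C. formosanus level and 1 at the C. gestroi level), on log2 CPM and on CPM, for the 2788 genes called between the parents with at least a 2-fold difference, split by which parent was higher. Genes beyond -1 or 2 are not drawn (2 on log2 CPM, 33 on CPM); the split sets stand apart on log2 CPM (medians 0.561 and 0.232) and nearly together on CPM (0.363 and 0.438).

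Genes counted in 1 parent only were set against the level of that parent. The set was 117 genes with a mean of at least 5 CPM in C. formosanus bodies and at most 3 counts in those of C. gestroi, and 42 genes of the reverse kind. Hybrid G had a median of 0.418 times the C. formosanus level over the 117 (quartiles 0.311 and 0.636) and of 0.437 times the C. gestroi level over the 42 (quartiles 0.157 and 0.671). It was below the parent at all 3 stages in 74 of 117 and 28 of 42, and above it at all 3 in 2 of each. It had at most 3 counts in 2 of the 117 and 1 of the 42. By stage, the medians were 0.431, 0.434 and 0.521 for the C. formosanus genes and 0.514, 0.391 and 0.415 for the C. gestroi genes. BGI_novel_ IDs made up 104 of the 117 and 36 of the 42. The ratios in Hybrid F bodies were 0.431 and 0.435 against the same parents. These genes were chosen by high values in the parent that each ratio is taken to, which can lower the ratio. Few counts in the other parent may stand for NA or for reads not assigned, so the output of a single parental copy was not measured.

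Against the mean of both parents on the log2 scale, 222 genes were called (1.71%), 219 higher in Hybrid G (1.69%) and 3 lower (0.0231%). The mean of logs lies far below the linear mean where 1 parent is near 0, and 90 of the 219 had at most 3 counts in a parent. Without genes that had NA, 96 genes were called, 94 higher and 2 lower. Set against the linear mean of the parental CPM, 147 of the 219 (67.1%) were above it at all 3 stages and 15 below it at all 3, beside 19.1% and 22.5% of all genes tested. The 219 were chosen for high Hybrid G values in these same profiles, so a larger share above the linear mean is partly built in. The median ratio to the linear mean was 1.47. The 3 lower genes were below the linear mean at all 3 stages. Among them, Cfor_02950 stood at 23.8, 3.11 and 34.9 CPM in Hybrid G, 89.9, 12.6 and 68.3 in C. formosanus and 174, 23.7 and 90.1 in C. gestroi. BGI_novel_G003849 stood at 15.4, 6.14 and 11.8 CPM in Hybrid G, 25.7, 16.4 and 20.8 in C. formosanus and 38.9, 24.6 and 28.3 in C. gestroi. Both were under both parents at each stage, with the pre-molt profile lowest in all 3 crosses. The log2 difference from the mean of the parents was -1.97 ± 0.31 (SE, edgeR adjusted p = 0.046) for Cfor_02950 and -1.24 ± 0.17 (SE, edgeR adjusted p = 0.033) for BGI_novel_G003849; the calls were lost in 8 and in all 9 of the fits without 1 profile. Leaving out each profile gave 53, 18 and 0 calls without those of C. formosanus in stage order, 123, 73 and 16 without C. gestroi, and 8, 0 and 18 without Hybrid G. Of the 18 calls without the Hybrid G post-molt profile, 6 were higher and 12 lower, so the excess of higher calls did not hold there.

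Differences outside the parental range were mostly found at single stages. With 1 profile per cross and stage there is no test, and a size of at least 4-fold from both parents was used. Between molts, 357 of 12962 genes (2.75%) were at least 4-fold above both parents in Hybrid G and 209 (1.61%) below both, and with all profiles thinned to the smallest total 306 and 196. Before the molt the numbers were 115 above (0.887%) and 298 below (2.30%), and after it 60 above (0.463%) and 44 below (0.339%). Only 5 genes were above both parents by this size at all 3 stages and 0 below. The parents exceeded this in places: C. gestroi was at least 4-fold below both C. formosanus and Hybrid G in 1192, 891 and 860 genes, and above both in 299, 210 and 125. C. formosanus was below the other crosses in 513, 395 and 480 genes and above them in 208, 270 and 134. Between molts, Hybrid G had the most genes above and the fewest below of the 3 crosses.

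In the 357 genes high between molts, the medians of the parents were lowest between molts and those of all 3 crosses highest before the molt. The median was 8.65 CPM between molts, 33.7 before and 5.82 after the molt in Hybrid G, 0.165, 24.8 and 4.34 in C. formosanus, and 0.176, 28.8 and 4.73 in C. gestroi. In Hybrid F bodies it was 0.915, 37.5 and 6.05. Single genes varied: the pre-molt profile was the highest of its cross in 218 of the 357 in Hybrid G, 232 in C. formosanus and 228 in C. gestroi, and in all 3 crosses in 158 (44.3%, beside 11.3% of all genes tested). The choice favoured genes with low inter-molt levels in the parents, so these 2 shares cannot be compared directly. The genes were chosen by the inter-molt separation of Hybrid G from both parents, so that separation is no result. Before and after the molt, stages not used in the choice, the Hybrid G medians were near those of the parents. The inter-molt median of Hybrid F, also not used, lay above those of the parents and under that of Hybrid G. BGI_novel_ IDs were 56.9% of the 357. Among the largest such differences was Cfor_09910, at 5586, 24833 and 343 CPM in Hybrid G, 0.331, 16104 and 476 in C. formosanus, 0.0878, 16628 and 429.8 in C. gestroi and 2.01, 25671 and 329 in Hybrid F. Before and after the molt the crosses were close together. In the inter-molt heads, scaled separately, Cfor_09910 was at 8.49 CPM in Hybrid G, 0.480 in C. formosanus and 0.330 in C. gestroi. BGI_novel_G001610 stood at 556, 1337 and 2.71 CPM in Hybrid G and 0, 1394 and 3.95 in C. gestroi. The C. formosanus bodies had 0, 2.66 and 0 CPM, under 3 at every stage, and those of Hybrid F 0, 1613 and 2.06 CPM. Whether the workers of the Hybrid G inter-molt profile matched their labelled stage was not tested.

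The genes below both parents between molts and before the molt overlapped: 111 were in both sets, 53.1% of the 209 and 37.2% of the 298. Of the genes above, 20 were in both sets, 5.60% of the 357 and 17.4% of the 115. In the 111 genes the Hybrid G median was 3.32 CPM between molts, 0.217 before and 12.4 after the molt. It was 30.8, 7.32 and 14.9 in C. formosanus and 39.9, 6.70 and 19.8 in C. gestroi, so the post-molt levels of Hybrid G were near those of both parents. Hybrid F had 23.7, 0.464 and 11.5, low before the molt as Hybrid G was, and near the parents between molts. Of the 111, 109 (98.2%) were at least 4-fold higher in parental bodies than in parental heads, beside 5.68% of all genes tested. The 111 were chosen for parental body values at least 4-fold above those of Hybrid G, which favours genes with high parental body levels. That choice can raise their share, so it cannot be compared directly with the share of all genes. How much of the tissue in which these genes are expressed was dissected with each body was not tested. Among the genes below both parents between molts, BGI_novel_G001662 stood at 0.171, 0 and 7.41 CPM in Hybrid G, 16.5, 5.66 and 9.17 in C. formosanus and 19.5, 1.14 and 13.3 in C. gestroi. BGI_novel_G000959 had 0, 18.6 and 20.5 CPM in Hybrid G, 14.3, 11.8 and 5.61 in C. formosanus and 22.7, 0 and 3.05 in C. gestroi, so that it was at 0 between molts and above both parents at the other stages.

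**Figure D5:**
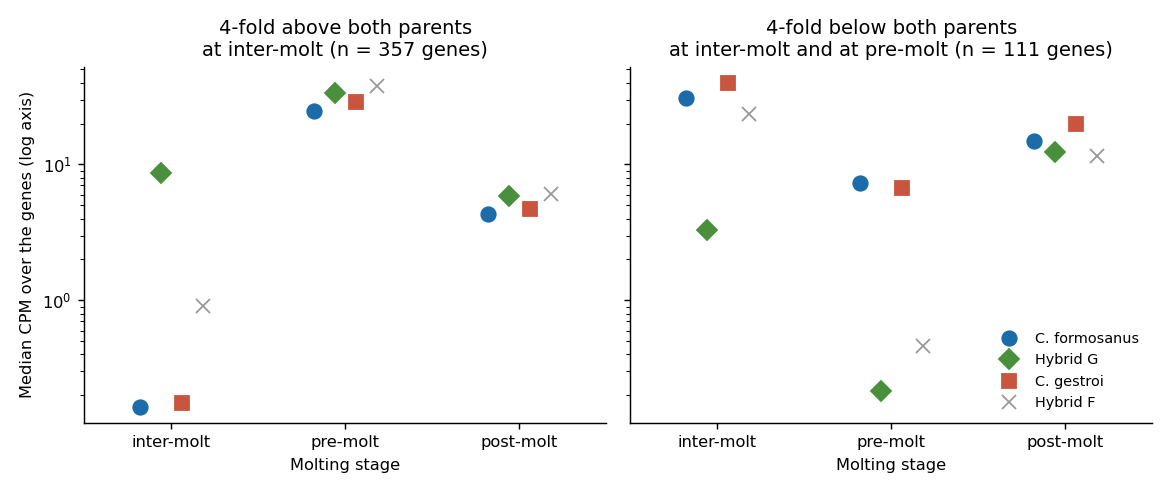
Median CPM (vertical log axis) by stage (horizontal axis) in bodies of C. formosanus, C. gestroi, Hybrid G and Hybrid F, for the 357 genes at least 4-fold above both parents between molts and for the 111 genes at least 4-fold below both between molts and before the molt. The sets were chosen by these Hybrid G and parental values, so the separation at those stages is a description; the post-molt medians of the crosses lie close together.

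Whether the stages differed in Hybrid G as they did in both parents was tested with added terms for hybrid by stage, which leave 2 residual degrees of freedom. edgeR called 0 genes, with a smallest adjusted p of 0.178, and 656 had an unadjusted p under 0.05; DESeq2 called 392, and 28 were called by edgeR with the Hybrid F bodies added. Among the genes with the smallest p, Cfor_06987 stood at 132, 537 and 3.93 CPM in Hybrid G, 0.0827, 175 and 2.40 in C. formosanus and 0.263, 259 and 2.92 in C. gestroi. BGI_novel_G003718 stood at 53.7, 9.65 and 66.9 CPM in Hybrid G, 0.661, 29.5 and 88.8 in C. formosanus and 0.263, 10.4 and 42.3 in C. gestroi. Both had far more CPM between molts in Hybrid G than in either parent, and neither passed the threshold. In the other direction, Cfor_01008 stood at 14.1, 1.59 and 23.3 CPM in Hybrid G, 107, 46.8 and 34.1 in C. formosanus and 72.1, 27.7 and 25.7 in C. gestroi. Cfor_04571 stood at 9.54, 0.795 and 34.7 CPM in Hybrid G, 47.3, 26.1 and 32.6 in C. formosanus and 125, 43.1 and 65.3 in C. gestroi. Both were also under the parents before the molt, as in Hybrid F, which had 70.0, 1.49 and 27.5 CPM of Cfor_01008 and 54.7, 2.19 and 30.9 CPM of Cfor_04571.

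The heads of the same crosses, scaled separately and possibly taken from the same workers, were read for the genes sorted in the bodies. The order seen in bodies was present at all 3 head stages in 149 of the 153 genes higher than in C. formosanus (97.4%, beside 23.4% of all genes tested) and in 20 of the 20 lower (26.3% of all). Against C. gestroi it was present in 1157 of 1315 higher (88.0%, beside 30.5%) and in 447 of 562 lower genes (79.5%, beside 28.4%). Of the genes between both parents in bodies, 47 of 50 were between them at all 3 head stages (94.0%, beside 29.8%). Heads were nearer C. formosanus at all 3 stages for 895 of 1665 genes on the C. formosanus side (53.8%, beside 21.9%) and nearer C. gestroi for 99 of 117 on the C. gestroi side (84.6%, beside 13.2%). Of the 6 genes above both parents in bodies, 2 were above both at all 3 head stages (beside 1.83% of all genes). In each set the share was above that of all genes, and it was lowest for the genes above both parents and those on the C. formosanus side. The sets were chosen for called differences in bodies, while 66.2% of all genes had no call. A higher share in heads is thus partly built in, and the 2 shares cannot be compared directly.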

How the data were processed

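The authors deposited 1 table of expected counts per gene (RSEM-type estimates, 30.5% of the values used here not whole) for 15950 genes and 67 samples. Bowtie2, RSEM and DESeq2 are named in the submitters' processing notes; no source used here gives their versions and roles, the genome or the annotation. Expected counts divide reads among similar genes, so values of genes with close copies are uncertain, and whether strand was used is not given. Columns of a group were identical, so each group was 1 profile; NA (9.46% of the cells used) was read as 0. All 67 columns were matched to samples by name.

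After rounding to whole numbers, 12962 genes passed filterByExpr (grouped by stage); counts were scaled by TMM and fitted as cross plus stage in 9 profiles (4 residual degrees of freedom) with edgeR 4.0.16 (glmQLFit, robust; glmQLFTest) in R 4.3.3. Distances, positions and 4-fold sizes used log2 CPM with a prior count of 2; CPM used TMM-scaled library sizes. A p-value here reflects recurrence over stages, with no measure of the spread among workers. The listed marker symbols matched 0 IDs. Named IDs are the 2 per direction and class with the largest difference (mean log2 CPM of at least 3, or 8 CPM at 1 stage for inter-molt sets; smallest p for hybrid by stage). Members, classes and lists were chosen with earlier results of these data known. Alternatives were DESeq2 1.42.0, median-ratio scaling, no filter, Hybrid F bodies added, genes without NA, equal depth by thinning, a stage or profile left out, and other fold sizes. In simulated data with 200 changed genes and no difference between the parents, the edgeR fit found part of the 4-fold changes and no 2-fold change. Small differences can be missed. The real profiles had many parental differences and some calls under 2-fold, so the simulation does not give the smallest size found here. Intervals and floors (3 counts) cover counting error only.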

Additional observations from a re-analysis of the deposited data

How the results depend on the processing

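Median-ratio scaling, no filter on low counts, thinning to equal depth and leaving out genes with NA kept the counts against each parent within 1.5 times; 1 gene was below both parents with no filter and with thinning, and 96 genes were called against the mean of the parents without NA genes. DESeq2 called 1345 genes against C. formosanus, 3874 against C. gestroi and 1263 against the mean of the parents, with 95 above both, 68 below both, 503 between, 2683 on the C. formosanus side and 557 on the C. gestroi side, and 392 for hybrid by stage. With the Hybrid F bodies added these counts were 897, 3686, 732, 61, 9, 398, 2798, 405 and 28. Without the inter-molt stage, the counts were 24 against C. formosanus, 180 against C. gestroi, 2605 between the parents, 4 against their mean, 0 above both, 0 between, 177 on the C. formosanus side and 24 on the C. gestroi side. With 1 profile left out, fewer samples by construction, the counts ranged from 39 to 105 against C. formosanus, 263 to 1240 against C. gestroi, 2361 to 4063 between the parents, 0 to 123 against their mean, 0 to 5 above both, 0 to 19 below both, 0 to 23 between, 261 to 1033 on the C. formosanus side and 26 to 84 on the C. gestroi side. The median position was 0.306 over genes with a 4-fold parental difference, 0.408 on CPM and 0.328 to 0.347 with a stage left out. At a 2-fold size, 747 genes were above and 516 below both parents between molts, 550 and 585 before the molt, and 252 and 127 after it. The difference of distances was 0.207 over Cfor_ genes alone, and Hybrid G was nearer C. formosanus at 3 of 3 stages under each alternative run. Of 270 named-gene values under alternatives, 200 kept their side of the threshold, 70 missed it and 0 reversed. The cause of these changes was not tested. No paired analysis was possible because the columns of each group are identical, so replicate numbers carry no values of their own.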
